A study of Bos taurus with 6 samples.

Results

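The collagens described here are the chains that build the connective tissue of skeletal muscle, measured in longissimus thoracis, the long back muscle that yields the rib cut, of 6 steers (castrated males) of the Japanese Black breed. Of 10 collagen genes chosen by name, 7 had at least 1 probe set (a group of array probes read as 1 value) that the platform annotation assigns to that gene alone, among 9155 genes named in this way. These 7 genes hold 14 probe sets of the 24016 tested. Of the fibrillar chains COL1A1, COL1A2, COL3A1 and COL5A2 were measured, of the basement membrane chains COL4A1, and of the type VI chains COL6A1 and COL6A2. COL5A1, COL4A2 and COL6A3 were not analysed here, because no probe set met that rule.

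Fibrillar collagens I, III and V are triple helices of 3 chains that pack into the fibres of the perimysium, around fibre bundles, and of the endomysium, around single fibres. Collagen IV instead forms the sheet-like network of the basement membrane around muscle fibres and capillaries, and collagen VI forms fine beaded filaments that lie next to this membrane. In muscle these chains are made mainly by fibroblasts and related interstitial cells, and collagen IV also by vessel and muscle cells. Intramuscular connective tissue is known as a determinant of meat toughness and as the place where marbling fat forms.

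The restricted group was 3 steers without vitamin A supplementation, 589, 595 and 611 days old at sampling. The supplemented group was 3 steers given vitamin A by mouth at 296.8 IU per kg body weight each week, and these were 600, 612 and 618 days old. All 6 entered at 13 to 14 months and were fattened for 7 months on feed intended for a gain of 1.0 kg per day. Total RNA from 1 muscle sample per steer was labelled for a 3 prime Affymetrix array, so the spread between arrays of a diet is that between animals plus technical error.

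Values are in deposited log2 units, which run from about 5 to 13 in every array. They vary very little between arrays for a reason that the sources used here do not give, so a difference is not read as a fold change. Each difference is given on the deposited scale and as a multiple of the standard deviation (SD) within the groups of that probe set. The medians of the 6 arrays were 8.88e-06 apart, here called the spread of array medians. Most probe sets varied less than this. Of the 24016 tested, 3392 had a wider range, and the median range was 6.77e-07. The spread of array medians is therefore given as a mark of size only, not as a shift that all probe sets share. The muscle fibre markers measured, among them the actin ACTA1 at 12.67 and the creatine kinase CKM at 11.55, had high deposited log2 values. In the fit over all probe sets (limma, Benjamini-Hochberg adjustment), 1 passed the adjusted threshold of 0.05, which is 0.00416% of those with any variation, and it was no collagen.

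No collagen was shown to differ between restricted and supplemented steers, and the fibrillar chains varied mostly among the supplemented animals. All 7 fibrillar probe sets were highest in supplemented steer 1 and lowest in supplemented steer 2, with the 3 restricted steers between them. COL1A2, the second chain of collagen I, and COL3A1, the chain of collagen III, were among the probe sets with the widest spread on the array. Of the type VI chains, COL6A1 had this order in 1 of 3 probe sets and COL6A2 in 0 of 2. The type VI probe sets without it ranged over 1.06e-06 or less, beside a median range of 6.77e-07 over all tested probe sets. The COL6A1 probe set with this order was alone among type VI in ranging over more than the 8.88e-06 between array medians. The dimmer COL4A1 probe set had this order as well, so the order was not particular to the fibrillar chains.

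COL1A2 (NCBI gene 282188) encodes the alpha 2 chain of collagen I, the most abundant collagen of the perimysium. Its brighter probe set had deposited log2 values of 7.2159, 7.2068 and 7.2083 in restricted steers 1, 2 and 3, against 7.2371, 7.1973 and 7.2099 in supplemented steers 1, 2 and 3. The restricted steers lay close together inside the span of the supplemented ones, and the groups overlapped. The means were 7.2103 ± 0.00487 in restricted and 7.2147 ± 0.0204 in supplemented steers (SD, n = 3 each). The difference, restricted minus supplemented, was -0.00440 or -0.297 within-group SDs, with a 95% interval of -0.0348 to 0.0260 deposited log2 units (limma adjusted p = 1.0). The interval is many times wider than the difference.

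The other COL1A2 probe set had 6.6504, 6.6440 and 6.6430 in restricted and 6.6756, 6.6304 and 6.6497 in supplemented steers. It ordered the steers like the brighter one, except that restricted steers 2 and 3 changed places. Its difference was -0.00608 or -0.373 SDs (limma adjusted p = 1.0). Of all 24016 tested probe sets, these were the 5th and 6th by the distance between the highest and lowest array, at 0.0452 and 0.0398. Of the 945 tested probe sets with a mean above 7, 2 had a wider spread than the brighter COL1A2 probe set.

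COL1A1 (NCBI gene 282187) encodes the alpha 1 chain, of which each collagen I molecule holds a pair beside 1 alpha 2 chain. Its brighter probe set had deposited log2 values of 5.755011, 5.754959 and 5.754990 in restricted steers, against 5.755133, 5.754913 and 5.754924 in supplemented steers. Supplemented steer 1 stood alone at the top, and supplemented steers 2 and 3 lay below all 3 restricted steers. The means differed by -3.30e-06 or -0.0368 SDs (95% interval -0.000187 to 0.000181, limma adjusted p = 1.0), and the whole range of 0.000220 was 66.7 times this difference. The dimmer probe set ranged over 6.51e-07, less than the spread of array medians, and had the same steers at both ends. Spread thus differed greatly between the probe sets of the collagen I chains, and an order of genes by spread is no order of biological variation.

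COL3A1 (NCBI gene 510833) encodes the single chain type of collagen III, a fibrillar collagen of the more pliable connective tissue layers. In its brighter probe set the deposited log2 values were 8.2399, 8.2347 and 8.2361 in restricted steers and 8.2415, 8.2305 and 8.2353 in supplemented steers. Restricted steer 1 lay just below supplemented steer 1, and the remaining restricted steers lay in the middle. The difference was positive here, at 0.00110 or 0.253 SDs (95% interval -0.00786 to 0.0101, limma adjusted p = 1.0). The dimmer probe set differed by 0.00129 or 0.215 SDs and kept 4 of 6 steers at the same place in the order. Their ranges of 0.0111 and 0.0153 were exceeded by 0.129% and 0.104% of the tested probe sets.

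COL5A2 (NCBI gene 538590) encodes a chain of collagen V, which sits inside collagen I fibrils and limits their diameter. On the cattle annotation (ARS-UCD2.0) it is the direct neighbour of COL3A1. Its 1 probe set had deposited log2 values of 5.291943, 5.291921 and 5.291929 in restricted steers, against 5.291959, 5.291916 and 5.291925 in supplemented steers. The order of the steers was that of the brighter COL3A1 probe set, on a range of 4.34e-05. The difference was -2.62e-06 or -0.145 SDs (95% interval -3.96e-05 to 3.44e-05, limma adjusted p = 1.0).

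**Figure D1:**
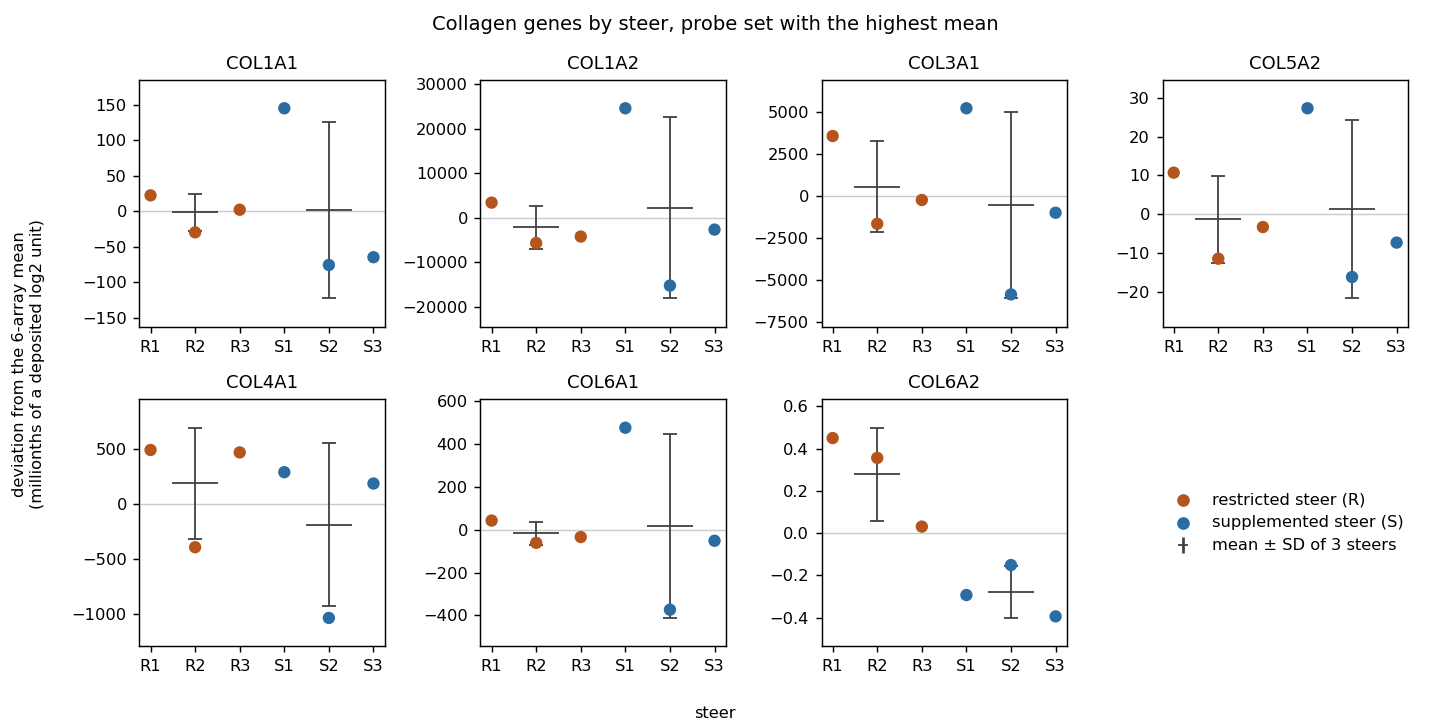
Deviation of each steer from the 6-array mean of the gene's brightest probe set, in millionths of a deposited log2 unit, with a separate vertical scale in each panel. Points are steers (R restricted, S supplemented) and bars are the mean ± SD of 3 steers. In COL1A1, COL1A2, COL3A1, COL5A2 and COL6A1 supplemented steers 1 and 2 lie at opposite ends, and COL6A2 alone shows groups that do not overlap, within less than 1 millionth.

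The SD of the supplemented steers was larger than that of the restricted steers in all 7 fibrillar probe sets, by 2.05 times in COL5A2 to 5.70 times in the dimmer COL1A2 probe set. Over all tested probe sets the SD was larger in the supplemented group in 51.8%. The pattern of supplemented steer 1 highest and supplemented steer 2 lowest was found in 2.96% of all tested probe sets. It was noticed in the values and is given as a description, since the 7 probe sets come from the same 6 samples and from genes that are often made by the same cells. No test of the spread was run. Leaving out supplemented steer 1 turned the COL1A2 difference to 0.00679, COL1A1 to 6.83e-05 and COL5A2 to 1.04e-05. Leaving out supplemented steer 2 turned the COL3A1 difference to -0.00155. Leaving out restricted steer 2 turned COL1A1 to 1.07e-05 and COL5A2 to 2.42e-06, and leaving out restricted steer 1 turned COL3A1 to -0.000402. None of these differences passed the adjusted threshold (limma), and the sign of each depended on the animals included.

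COL4A1 (NCBI gene 282191) encodes a chain of the collagen IV network. On the annotation it lies beside COL4A2, its usual partner chain, which was not analysed here. The brighter probe set had deposited log2 values of 7.31709, 7.31621 and 7.31707 in restricted steers, against 7.31689, 7.31556 and 7.31679 in supplemented steers. Restricted steers 1 and 3 were the highest, supplemented steer 2 was again the lowest, and the groups overlapped through restricted steer 2. The means were 7.3168 ± 0.000505 in restricted and 7.3164 ± 0.000738 in supplemented steers (SD, n = 3 each), a difference of 0.000377 or 0.595 SDs (95% interval -0.000922 to 0.00168, limma adjusted p = 1.0). Without supplemented steer 2 it was -4.86e-05.

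The dimmer COL4A1 probe set had 6.074513, 6.074325 and 6.074500 in restricted steers, against 6.074521, 6.074317 and 6.074428 in supplemented steers. Steer 1 of each group was at the top and steer 2 of each group at the bottom. The difference was 2.35e-05 or 0.227 SDs (limma adjusted p = 1.0). The SDs of the groups were nearly equal in it, supplemented over restricted being 0.973, unlike in the fibrillar chains.

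Collagen VI is built from an alpha 1 chain, an alpha 2 chain and a longer chain such as that of COL6A3, and mutations of these chains cause muscular dystrophies in people. COL6A1 (NCBI gene 511422) and COL6A2 (NCBI gene 282194) are direct neighbours on the annotation. The brightest COL6A1 probe set had deposited log2 values of 6.42710, 6.42700 and 6.42703 in restricted steers and 6.42754, 6.42669 and 6.42701 in supplemented steers. The 3 restricted steers and supplemented steer 3 lay close together, with supplemented steer 1 far above them and supplemented steer 2 far below. The SD of the supplemented steers was 7.95 times that of the restricted steers, while in the dimmest probe set of the same gene it was 0.114 times. The difference was -3.46e-05 or -0.113 SDs (95% interval -0.000662 to 0.000593, limma adjusted p = 1.0), and without supplemented steer 1 it was 0.000195.

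The remaining COL6A1 probe sets ranged over 1.06e-06 and 2.62e-07 deposited log2 units, less than the spread of array medians. Both were highest in restricted steer 3. Compared with the brightest probe set they kept 1 and 0 of 6 steers at the same place, so the probe sets of COL6A1 gave no common order.

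COL6A2 was the 1 member whose groups did not overlap. Its brighter probe set had deposited log2 values of 5.7013333, 5.7013332 and 5.7013329 in restricted steers, against 5.7013326, 5.7013327 and 5.7013325 in supplemented steers. All restricted steers lay above all supplemented ones, by 5.58e-07 or 3.14 SDs on average (95% interval 1.87e-07 to 9.29e-07, limma unadjusted p = 0.0128, adjusted p = 1.0). The difference is smaller than the spread of array medians, and after array medians were made equal it was -1.67e-06. That step moved the difference of every probe set by the same amount, more than the whole range of 8.44e-07 here. The turned sign therefore cannot tell whether the deposited difference holds. The dimmer COL6A2 probe set differed by 8.80e-08 or 0.346 SDs, and its groups overlapped, restricted steer 1 being the lowest and restricted steer 3 the highest.

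Of the 14 collagen probe sets, 7 had a higher and 7 a lower mean in the restricted group, and 0 passed the adjusted threshold (limma). At an unadjusted p under 0.05 there was 1 probe set, higher in restricted steers, where 1.91% of all tested probe sets were called higher and 2.17% lower. The groups did not overlap in 1 of the 14, which was higher, against 4.12% of all tested probe sets higher and 4.64% lower, or 8.76% in all. The median difference was 0.04997 SDs over the members and -0.0325 SDs over all tested probe sets. By class it was -0.145 SDs over the 7 fibrillar probe sets, 0.411 over the 2 of COL4A1 and 0.137 over the 5 of type VI.

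**Figure D2:**
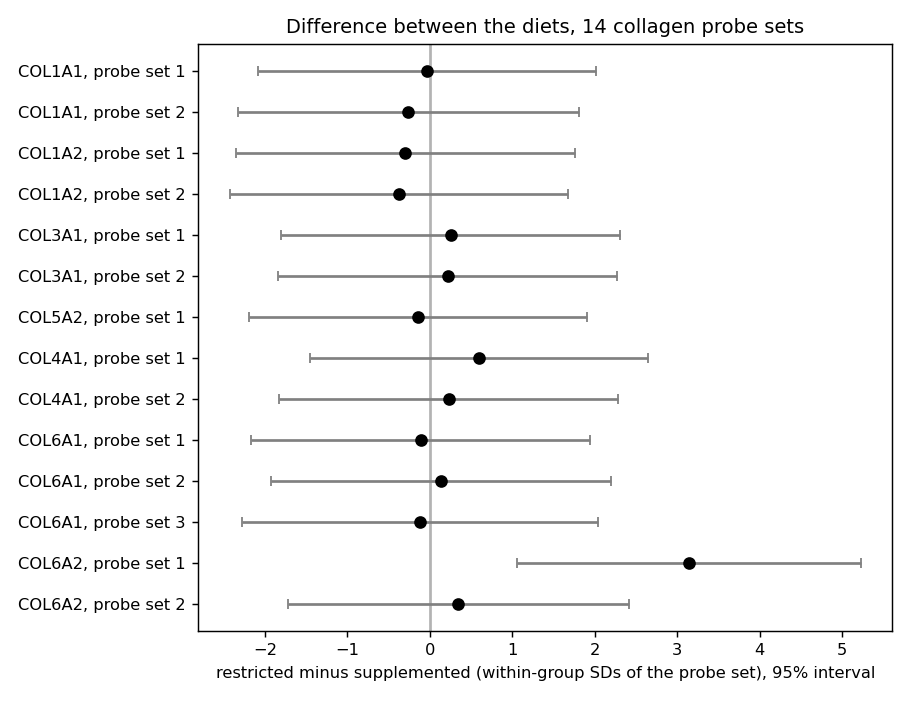
Difference between the diets, restricted minus supplemented, in within-group SDs for each of the 14 probe sets, with 95% intervals from limma that cover no multiple testing. Probe sets are numbered from the brightest of each gene, and 13 intervals cross 0, all but that of the brighter COL6A2 probe set.

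A class score was formed for each steer as the mean over the class's genes of the value in SDs from the 6-array mean, each gene by its brightest probe set. The fibrillar score was 0.523, -0.479 and -0.138 in restricted steers, against 1.66, -1.14 and -0.426 in supplemented steers. The restricted steers covered the middle of the scale, and the group means were -0.0313 ± 0.510 and 0.0313 ± 1.45 in restricted and supplemented steers (SD, n = 3 each). The COL4A1 score, that of the basement membrane class, was 0.815, -0.656 and 0.778 in restricted and 0.479, -1.73 and 0.308 in supplemented steers. The group means were 0.625 apart in this class, and -0.135 without the low supplemented steer 2.

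The type VI score was 0.731, 0.405 and -0.0166 in restricted steers, against 0.444, -0.900 and -0.665 in supplemented steers, a difference of 0.747. Its direction turned with the scaling, to -0.371 after array medians were made equal and -0.326 with quantile normalization. The turn came with COL6A2, as COL6A1 was lower in restricted steers as deposited and in both settings. Both settings changed the COL6A2 difference by more than its deposited range of 8.44e-07. The turn therefore cannot tell whether the deposited score difference holds. The score gives COL6A2, with its very small range, the same weight as COL6A1. Within the same animal, the type VI minus fibrillar score was 0.208, 0.884 and 0.121 in restricted and -1.21, 0.238 and -0.238 in supplemented steers. The groups overlapped in this contrast. Whether diet sets the classes apart was not tested, as no test was run on scores of chosen genes.

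**Figure D3:**
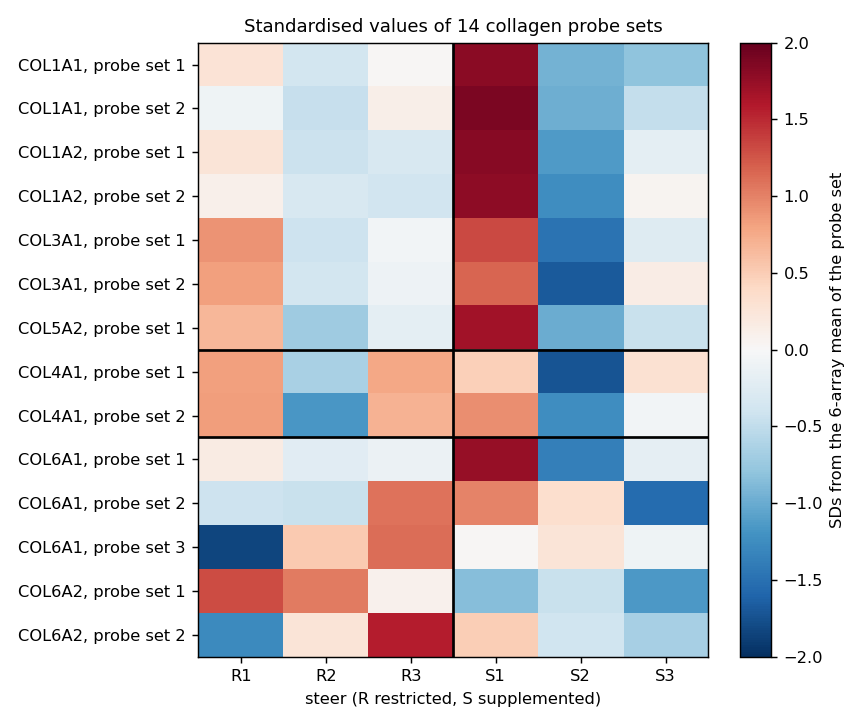
Standardised values of the 14 probe sets (rows, grouped as fibrillar, basement membrane and type VI from the top) in the 6 steers (columns, R restricted, S supplemented), red above and blue below the probe set's 6-array mean. The column of supplemented steer 1 is high and that of supplemented steer 2 low through all 7 fibrillar rows, both COL4A1 rows and the first COL6A1 row, and the other type VI rows differ from this.

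The probe sets with a spread beyond that of the array medians showed the same 2 animals at the ends in 8 of 9 cases. In 9 of 9 supplemented steer 2 was the lowest, and in 8 supplemented steer 1 was the highest, the exception being the brighter COL4A1 probe set. Of the 3392 tested probe sets with such a spread, 4.13% had both animals at these ends. The 5 narrower collagen probe sets had them in 1 case, the dimmer one of COL1A1.

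**Figure D4:**
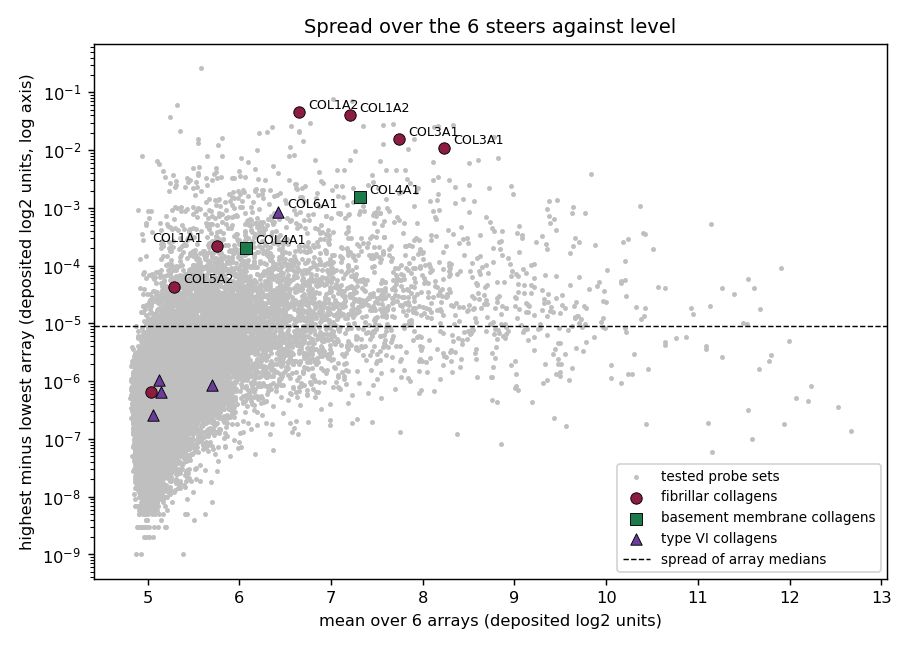
Distance between the highest and lowest array (log axis, deposited log2 units) against the mean over 6 arrays for all tested probe sets in grey, with the collagens marked by class. COL1A2 at 0.0398 and 0.0452 and COL3A1 at 0.0111 and 0.0153 lie at the upper edge, and 5 collagen probe sets, 4 of them type VI, lie under the dashed line of the spread of array medians.

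Genes that act on collagen chains were examined as lists, each gene by its brightest probe set. Over all 9155 genes taken in this way, 4.62% were at an unadjusted p under 0.05 and 8.74% had groups without overlap. Of 34 further collagen chains 16 were measured, 7 higher and 9 lower in restricted steers with 0 past the adjusted threshold (limma) and 2 at an unadjusted p under 0.05. The groups did not overlap in 4 of the 16, 2 higher and 2 lower. The median difference was -0.270 SDs, beside -0.00787 SDs over all 9155 genes. COL11A2, a chain of the cartilage collagen XI, differed by 2.30e-07 or 3.95 SDs and COL2A1, the chain of cartilage collagen II, by -1.70e-06 or -2.79 SDs. Both were without overlap, and both differences were smaller than the spread of array medians. The other genes without overlap, COL5A3 and COL9A1, differed by 1.55 and -1.84 SDs. COL27A1 differed by 1.76 SDs, and its difference and those of COL5A3 and COL9A1 were also smaller than the spread of array medians. COL12A1, a chain of collagen XII that binds to the surface of collagen I fibrils, had the widest range of this list at 0.000920 and was highest in supplemented steer 1, which was chosen for mention after its values were seen.

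Of 18 genes of collagen folding and hydroxylation 16 were measured, 9 higher and 7 lower, with 0 past the adjusted threshold (limma) and 0 at an unadjusted p under 0.05. P3H2 and P3H1, prolyl 3-hydroxylases, differed by -1.60 and -1.16 SDs, and COLGALT1, which adds galactose to hydroxylysine, by 1.10 SDs. All of these differences were smaller than the spread of array medians. The list was not ordered by steer like the fibrillar chains: its score was 0.306, -0.476 and 0.144 in restricted and 0.189, -0.206 and 0.0430 in supplemented steers.

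Of 14 genes of procollagen cleavage and crosslinking 7 were measured, 1 higher and 6 lower. With limma 0 passed the adjusted threshold and 1 was at an unadjusted p under 0.05, beside 4.62% of all genes. That gene was ADAMTS2, which removes the amino propeptide of procollagens I to III. It was lower without overlap by -1.49e-06 or -3.11 SDs (limma unadjusted p = 0.0126, adjusted p = 1.0), again less than the spread of array medians. Groups did not overlap in 1 of the 7, beside 8.74% of all genes. LOXL4, a lysyl oxidase-like enzyme, differed by -0.792 SDs, also less than the spread of array medians. PCOLCE, which enhances cleavage of the carboxy propeptide, differed by -0.406 SDs. PCOLCE had supplemented steer 1 highest and supplemented steer 2 lowest, on a range of 0.00102. The list score was 0.0224, -0.163 and -0.574 in restricted steers, against 1.02, -0.735 and 0.430 in supplemented steers, so that supplemented steers 1 and 2 were at its ends too.

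Of 10 collagen receptor genes 5 were measured, 3 higher and 2 lower, with 0 past the adjusted threshold (limma) and 0 at an unadjusted p under 0.05. MRC2, an uptake receptor for collagen, was lower without overlap of the groups by -1.63e-05 or -1.98 SDs (limma unadjusted p = 0.0558, adjusted p = 1.0). It was the only gene of the 5 without overlap, beside 8.74% of all genes. CD44 differed by 0.929 and ITGA10, an integrin chain that binds collagen, by -0.147 SDs, both less than the spread of array medians.

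Markers of the cells that could supply these transcripts also varied between animals, in part in other orders. In muscle tissue fewer cells of a type and less RNA per cell cannot be told apart. Of 12 measured fibroblast and fibro-adipogenic progenitor markers, 7 were highest in supplemented steer 1, 5 were lowest in supplemented steer 2, and 4 had both, where over all 9155 genes 14.9% were highest in supplemented steer 1, 16.3% were lowest in supplemented steer 2 and 3.06% had both. The list score was 0.273, -0.630 and -0.0790 in restricted steers, against 1.12, -0.513 and -0.172 in supplemented steers. Its lowest animal was restricted steer 2, not supplemented steer 2 as in the fibrillar chains. Between the diets 5 of the 12 were higher and 7 lower in restricted steers, with a median of -0.296 SDs. Those with the smallest p, CD34, PDGFRA and POSTN, differed by -2.65, -1.23 and -0.643 SDs. With limma 0 passed the adjusted threshold and 1, CD34, was at an unadjusted p under 0.05, beside 4.62% of all genes. The CD34 and PDGFRA differences were smaller than the spread of array medians. DCN, the collagen-binding proteoglycan decorin, and LUM, its relative lumican, were among those highest in supplemented steer 1, and are named after their values were seen. DCN was lowest in restricted steer 2 and LUM in supplemented steer 2. FBLN1, PDGFRB, THY1, FAP and CD34 were highest in other animals.

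The macrophage marker score was 0.0950, -0.715 and -0.0899 in restricted steers, against 1.23, 0.199 and -0.715 in supplemented steers. The Schwann cell and nerve marker score was -0.367, -0.587 and 0.000285 in restricted steers, against 1.11, -0.285 and 0.126 in supplemented steers. Supplemented steer 1 was the highest in both. These lists had 5 of 6 and 3 of 4 measured genes highest in this animal, beside 14.9% of all genes. Endothelial, smooth muscle and adipocyte markers had instead restricted steer 1 highest, at 0.811, 1.07 and 1.12. Of these, the adipocyte score was 1.12, -0.191 and 0.758 in restricted and 0.0623, -0.891 and -0.853 in supplemented steers. The muscle fibre score lay between -0.536 and 0.256 in restricted and between -0.0750 and 0.536 in supplemented steers. The part of these cells in the collagen values was not tested.

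Between the diets, 0 genes of these 6 marker lists passed the adjusted threshold (limma), and at an unadjusted p under 0.05 there were 3 of 41 measured genes, CFD, MYH1 and MBP, where 4.62% of all genes were. The genes named are the 3 of each list with the smallest p. The adipocyte and the smooth muscle lists went in a single direction, and the other lists were mixed. Of 7 adipocyte markers 7 were higher in restricted steers (median 1.41 SDs). CFD, an adipocyte protease, differed by 6.35 SDs, and the adipokine ADIPOQ and the lipid droplet protein CIDEA by 1.78 SDs each. Of 8 muscle fibre markers 2 were higher and 6 lower (median -0.250 SDs). MYH1, a fast myosin heavy chain, differed by -3.46 SDs, the oxygen store MB by -0.842 and ACTA1 by -0.497 SDs. Of 4 Schwann cell and nerve markers 1 was higher and 3 lower (median -0.674 SDs). MBP, a myelin protein, differed by -3.15 SDs, SOX10 by -0.999 and S100B by 0.381 SDs. Endothelial markers had 5 of 9 higher and 4 lower (median 0.178 SDs), CLDN5, CDH5 and TEK having 1.37, 1.16 and 1.06 SDs and KDR, which is named after its value was seen, -1.21 SDs. Of 7 smooth muscle and pericyte markers 7 were higher (median 0.937 SDs), with TAGLN, ACTA2 and CNN1 at 1.28, 1.28 and 0.957 SDs. Macrophage markers had 2 of 6 higher and 4 lower (median -0.572 SDs), with AIF1, C1QA and CSF1R at -1.90, -0.994 and -0.729 SDs. On the deposited scale, MB, ACTA1, MBP, SOX10, CLDN5, CDH5, TEK, KDR, CNN1, AIF1 and CSF1R differed by less than the spread of array medians.

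**Figure D5:**
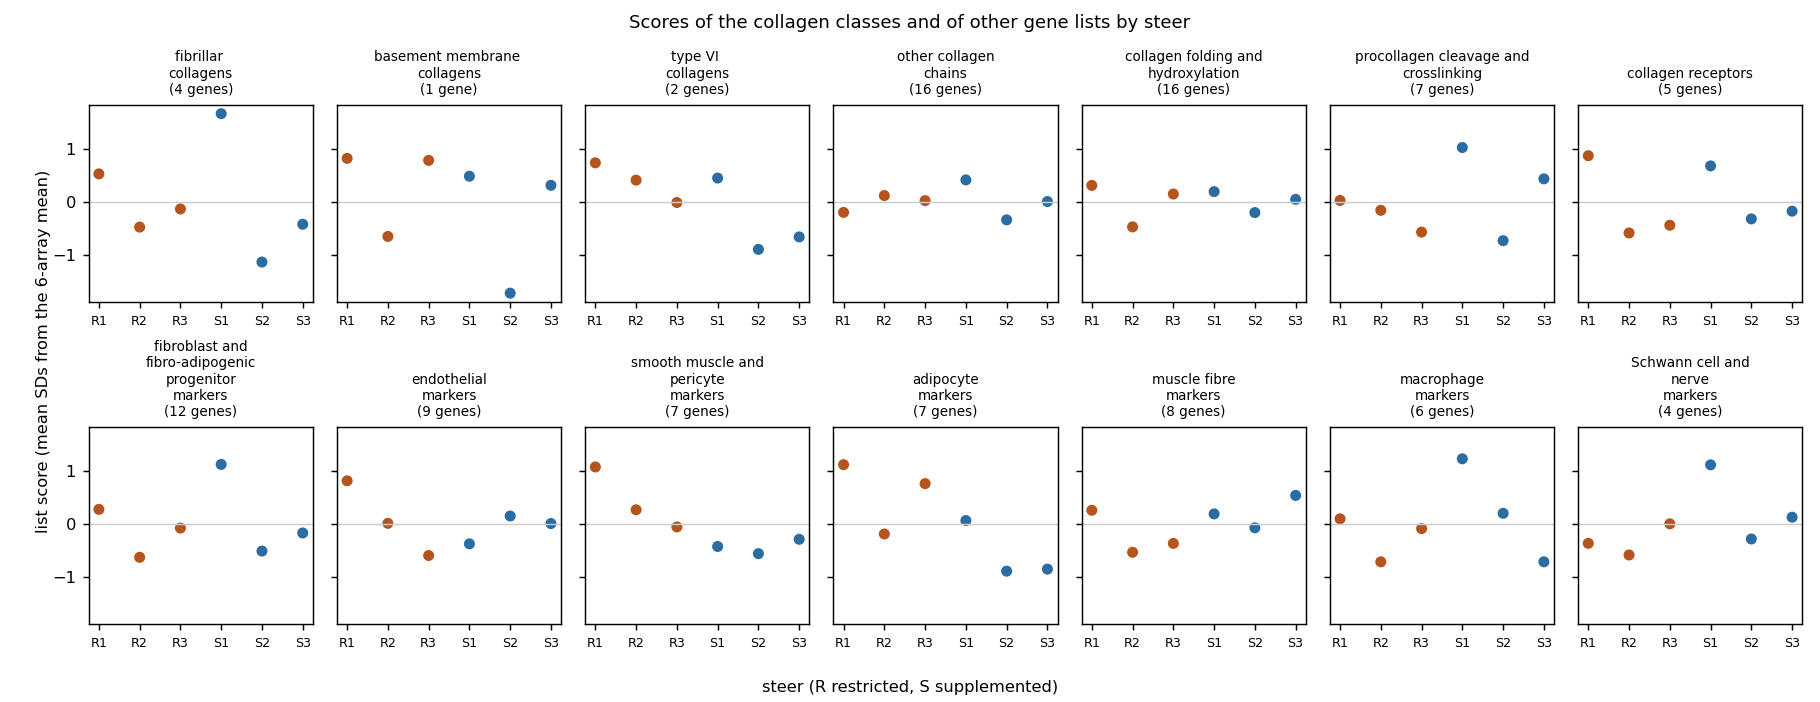
Scores by steer (R restricted, S supplemented) for the 3 collagen classes, 4 lists of collagen-related genes and 7 lists of cell type markers, as mean SDs from the 6-array mean. Supplemented steer 1 is the highest point for the fibrillar collagens at 1.66, procollagen cleavage at 1.02, fibroblast markers at 1.12, macrophage markers at 1.23 and Schwann cell markers at 1.11.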

How the data were processed

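The 6 arrays come as 1 table with 24128 probe sets, as the authors deposited it. Its values are taken as log2 from their range, and how the authors computed these deposited log2 values (background correction, normalization, summarization) is not given in the sources used here. After 112 control probe sets were left out, 24016 were tested, of which 13292 carried 1 gene symbol. Of these, 13263 matched a gene record of ARS-UCD2.0. No array build is named, so no coordinates are printed. Values were multiplied by 1e+06 and fitted in R 4.3.3 by limma 3.58.1 (lmFit, eBayes without trend, 0.483 prior and 4 residual degrees of freedom), restricted minus supplemented, two-sided, with Benjamini-Hochberg adjustment over 24014 probe sets with any variation. The fit was tested on simulated data with 200 probe sets changed by 40 SDs, of which it recovered 197. Differences of the size seen in the collagens were not simulated, so this says nothing of the power to find them. For each gene the probe set of highest mean stands for the gene. All members are named, and up to 3 genes of each other list by smallest unadjusted p; further names are marked. The members and lists were chosen with earlier results of these data known. Deviations of same-numbered steers had small correlations of 0.0374, 0.0151 and 0.0152, though above those of differently numbered steers, -0.0214 to 0.0061. The labels state no pairing, and numbers were not taken as pairs. With arrays there is no molecule count, and precision is limited by the 6 arrays.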

Additional observations from a re-analysis of the deposited data

How the results depend on the processing

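Alternatives were quantile normalization, shifting the arrays to the same median, age as a covariate, a replicate block, leaving out each steer, filters on level, array weights, eBayes with trend and robust, and averaging the probe sets of each gene. By its brightest probe set no collagen gene passed the adjusted threshold (limma) with quantile normalization, shifted arrays, age, the block, a steer left out or averaged probe sets. The count over the probe sets fitted was 1 as planned and 2 with quantile normalization, which left 8527 probe sets with any variation. It was 0 with age, 0 with the replicate block, and 1 to 2 with 1 steer left out, where 2 came without supplemented steer 3. With the shift, array weights and eBayes with trend and robust it was 1. The level filters also gave 1, over 18011 and 12007 probe sets. The block left each collagen difference as it was, by construction. With quantile normalization COL1A1 and COL4A1 had equal values on all arrays and gave no result, the type VI score difference was -0.326 and COL6A2 -5.39e-05. With the shifted arrays these were -0.371 and -1.67e-06. With age as a covariate COL3A1 turned to -0.00170, COL1A2 was -0.0144, COL1A1 -6.34e-05, COL5A2 -1.54e-05 and COL6A1 -0.000214, and the score differences were -0.809 (fibrillar, -0.0626 without age), 0.589 (basement membrane) and 0.201 (type VI). Supplemented steers 1 and 2 were at the ends of 9 member probe sets as deposited, 8 with shifted arrays and 4 of the 8 that still varied with quantile normalization, settings added after the data were seen. With 1 steer left out, score differences were -0.701 to 1.21 (fibrillar), -0.135 to 1.05 (basement membrane) and 0.323 to 1.39 (type VI). Gene differences were -4.18e-05 to 6.83e-05 (COL1A1), -0.0131 to 0.00679 (COL1A2), -0.00155 to 0.00398 (COL3A1), -1.13e-05 to 1.04e-05 (COL5A2), -4.86e-05 to 0.000668 (COL4A1), -0.000230 to 0.000195 (COL6A1) and 4.73e-07 to 6.82e-07 (COL6A2). Causes were not tested. With 3 arrays per diet and the unexplained narrow spread, small differences cannot be resolved.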

Other observations

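Of the 34 tested probe sets that ranged over more than 0.01 deposited log2 units, 4 belonged to COL1A2 and COL3A1. In 7 of the 34, or 20.6%, supplemented steer 1 was the highest and supplemented steer 2 the lowest. Beside the 4 collagen probe sets these were FN1, the matrix protein fibronectin, at a range of 0.0217, FASN, the fatty acid synthase, at 0.0265, and CLU, the secreted chaperone clusterin, at 0.0146. MFAP5, a microfibril protein, had the same animals at its ends on a range of 0.00822. These genes were picked after their values were seen.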
